A study of Mus musculus with 8 samples.

Results

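The genes described here encode the core of bone morphogenetic protein (BMP) signalling and were followed in dermal fibroblasts of ageing mice after long-term topical treatment with GW9662, a covalent blocker of the nuclear receptor PPARG. The 9 genes were taken by symbol: the ligands Bmp2 and Bmp4, the receptors Bmpr1a and Bmpr2, the secreted antagonists Nog and Grem1, and the response genes Id1, Id3 and Smad6. Every probe set annotated to exactly 1 of them was used, which gave 10 of the 45141 probe sets on the array and 9 of the 17097 genes measured. Bmpr2 had 2 probe sets and each of the other genes had 1.

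There were 8 mice, with 1 array each. In 4 of them the back skin received GW9662, at 150 nmol in 300 µl acetone, 3 times a week for 6 months. The other 4 received acetone alone on the same schedule and are called vehicle. The labels give an age of 12 months, which the description of the design places at the start of treatment. Strain and sex are not given in the sources used here. All fibroblasts were sorted from digested skin freed of subdermis, as cells positive for Pdgfra and CD34 and negative for CD45, CD117, CD24, CD31 and EpCam. The comparison addresses how PPARG inhibition alters transcription in old dermal fibroblasts. Per the description of the design, animals were collected in pairs, a treated and a vehicle animal on each day, and same-numbered animals are therefore also given as pairs 1 to 4.

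BMP ligands bind a complex of type I receptors, such as the product of Bmpr1a, and type II receptors, such as that of Bmpr2. The active complex phosphorylates SMAD1, SMAD5 and SMAD9, which join SMAD4 and switch on genes that include the Id family and the feedback inhibitor Smad6. In skin, BMP signals from the dermis and the underlying fat hold hair follicle stem cells at rest, and secreted antagonists such as noggin and gremlin 1 bind the ligands and lift that restraint.

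All values are log2 signal intensities from RMA, which subtracts background, brings the arrays to 1 common distribution and gives a single value for all probes of a set. The 8 sample medians lay between 4.63 and 4.69. The animal vehicle 4 lay apart from the other 7 on the first principal component over all genes (22.2 against -10.4 to 5.49), so results are also given without it, or without pair 4, where they change. Detection calls were not used here, and a level of 1 probe set is not set against that of another as an amount of transcript. Of the sort genes, Cd34 measured 10.72 in both groups (SD 0.151 in vehicle and 0.0404 after GW9662, n = 4 each), and Pdgfra measured 4.91 over all 8 animals. Of those sorted against, Ptprc (CD45) measured 2.89, Kit (CD117) 3.10, Cd24a 3.54, Epcam 3.92 and Pecam1 (CD31) 4.93, and the log2 difference of Epcam was 0.14 (limma unadjusted p = 0.0617, adjusted p = 0.997).

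The mean of 8 dermal fibroblast markers lay between 10.2 and 10.5 in the animals of both groups. Of cells that also make BMP ligands or antagonists, the mean of the 5 measured adipocyte markers of 8 listed lay between 3.82 and 3.97, that of the 9 measured dermal papilla markers of 10 listed between 3.97 and 4.19 and that of 8 keratinocyte markers between 4.92 and 5.02, with the groups overlapping in each. Within pairs the dermal papilla mean was higher after GW9662 in 4 of 4, and 5.46% of all single genes were. That mean includes Crabp1, which had the list's largest difference, 0.46, beside a median of 0.03 over the 9 measured. The mean without Crabp1 was not computed. Of the 67 measured markers of all cell types listed, 5 had an unadjusted p under 0.05 with the replicate number as a block, against 4.83% of all genes, and 0 passed adjustment. They include the dermal papilla marker Crabp1, at 0.46 and higher in 4 of 4 pairs by 0.37 to 0.65 (limma with the block, unadjusted p = 0.000239, adjusted p = 0.966), and the keratinocyte marker Trp63, at -0.25 and lower in 4 of 4 pairs (unadjusted p = 0.0102, adjusted p = 0.966), both named after their values were seen. The others were Tek, Kcnj8 and Tnnt3, markers of endothelium, of pericytes or smooth muscle, and of skeletal muscle. Of the 9 dermal papilla markers, 5 had a higher mean after GW9662, 3 a lower one and 1 an equal one. Of the 8 keratinocyte markers, 4 were higher and 4 lower. The part of cells other than fibroblasts in the values below was not tested. Pparg itself stood at 4.85 after GW9662 and 4.88 in vehicle.

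In neither ligand was the difference between groups larger than the spread between animals. Bmp2, a ligand of skin and its fat, measured 7.13, 7.13, 7.90 and 7.27 in vehicle 1 to 4 and 6.70, 7.0, 7.17 and 7.95 in GW9662 1 to 4. The highest animal of each group, vehicle 3 and GW9662 4, stood apart from the other 3 of its group, and the groups overlapped over most of their range. The log2 difference, GW9662 minus vehicle, was -0.15 with a 95% interval from -0.72 to 0.41 (limma adjusted p = 0.997). Within pairs it was -0.43, -0.13 and -0.73 in pairs 1 to 3 and 0.68 in pair 4. The spread of Bmp2 within groups (residual SD 0.458) was at percentile 99.4 of all genes, so this ligand varied between animals of a group more than nearly all other genes. Its mean difference had the other sign without vehicle 3 (0.03) or without GW9662 1 (0.02).

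Bmp4, the ligand classically found in dermal fibroblasts and the hair follicle's dermal papilla, measured 9.04, 9.27, 8.53 and 8.96 in vehicle 1 to 4. After GW9662 it measured 8.76, 8.80, 8.60 and 8.92. The treated animals lay inside the wider vehicle range, with an SD of 0.132 against 0.309 (n = 4 each). GW9662 minus vehicle was -0.18 on the log2 scale, with an interval from -0.49 to 0.13 (limma adjusted p = 0.997), and it was -0.07 without vehicle 2 and -0.32 without vehicle 3. Its upstream bases are shown beside those of Grem1, whose product binds BMP4. RefSeq (GRCm38.p6) places the 250 bases before the start of Bmp4 at chr14:46390670-46390919 on the minus strand, printed 5′ to 3′. Capitals in the sequences mark the SMAD motifs GGCGCC and GTCTAGAC, and this one holds neither.
Bmp4: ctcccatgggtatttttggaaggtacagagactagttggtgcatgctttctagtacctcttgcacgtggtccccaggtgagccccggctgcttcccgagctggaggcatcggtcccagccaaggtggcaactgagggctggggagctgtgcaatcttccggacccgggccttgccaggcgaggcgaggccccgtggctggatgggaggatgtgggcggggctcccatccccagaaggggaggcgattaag

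The secreted antagonists both had lower means after GW9662, by about the same amount, and neither passed the test. Nog, which encodes noggin, an antagonist that covers the receptor-binding faces of BMP ligands, measured 4.74, 4.77, 4.63 and 4.96 in vehicle 1 to 4. It measured 4.44, 4.55, 4.74 and 4.57 in GW9662 1 to 4. The lowest 3 of the 8 values were treated animals, but GW9662 3 stood level with vehicle 1 and above vehicle 3, so the groups overlapped. The log2 difference was -0.20 ± 0.09 (SE), with an interval from -0.39 to -0.0057 and an unadjusted p of 0.0448 in limma (adjusted p = 0.997). The exact permutation test over the 70 assignments of animals to groups gave p = 0.0857. The value was lower in 3 of 4 pairs, and it was -0.14 without vehicle 4, the highest of the 8. With the replicate number as a block the unadjusted p was 0.0591. The values used do not show whether the signal of Nog was above background.

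Grem1, which encodes gremlin 1, an antagonist of the BMP2 and BMP4 class of ligands, measured 8.76, 8.87, 8.50 and 8.73 in vehicle 1 to 4 and 8.32, 8.54, 8.36 and 8.87 in GW9662 1 to 4. GW9662 1 and GW9662 3 were the lowest of all 8 animals, while GW9662 4 equalled the highest vehicle animal. For Grem1 the log2 difference was -0.19 with an interval from -0.47 to 0.08 (limma adjusted p = 0.997). It was lower in pairs 1 to 3, by 0.44, 0.33 and 0.14, and higher in pair 4, by 0.14, and the mean difference was -0.13 without GW9662 1 and -0.31 without GW9662 4. The 250 bases before its start, at chr2:113758649-113758898 on the minus strand of GRCm38.p6 in RefSeq, hold 1 copy of GGCGCC, a GC-rich motif bound by SMAD1, which is in capitals.
Grem1: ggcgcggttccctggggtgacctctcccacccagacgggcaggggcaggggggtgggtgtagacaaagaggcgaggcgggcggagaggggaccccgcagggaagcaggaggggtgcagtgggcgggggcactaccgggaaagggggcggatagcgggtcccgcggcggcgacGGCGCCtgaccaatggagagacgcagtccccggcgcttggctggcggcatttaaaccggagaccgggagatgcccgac

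Of the receptors, Bmpr2 was the only 1 of the 9 genes whose groups did not overlap. Bmpr2 encodes the type II receptor dedicated to BMP ligands. Its brighter probe set measured 8.79, 9.05, 8.97 and 9.0 in vehicle 1 to 4 and 9.14, 9.15, 9.06 and 9.14 in GW9662 1 to 4. Every treated animal was above every vehicle animal, though the lowest treated value and the highest vehicle value are adjacent at the 2 decimals given. The log2 difference was 0.17 ± 0.07 (SE), with an interval from 0.02 to 0.32, an unadjusted p of 0.0328 and an adjusted p of 0.997 in limma. The exact permutation p was 0.0286, the smallest that 4 against 4 can give. Over all genes, groups did not overlap in 1.75%, and in 0.708% with GW9662 higher. The value was higher in 4 of 4 pairs, as in 5.46% of all genes, by 0.35 in pair 1 and by 0.09 to 0.14 in the others, and it was 0.12 without vehicle 1.

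The other probe set of Bmpr2 did not show this. It measured 7.74, 8.04, 8.13 and 7.74 in vehicle and 8.03, 8.09, 7.98 and 7.78 after GW9662, so that the groups overlapped fully. Its log2 difference was 0.06 with an interval from -0.18 to 0.30, over all probe sets (limma adjusted p = 0.997). With the mean of both probe sets the value for Bmpr2 was 0.11 (unadjusted p = 0.159). Upstream of Bmpr2, at chr1:59764029-59764278 on the plus strand of GRCm38.p6 in RefSeq, GGCGCC also occurs once and is in capitals.
Bmpr2: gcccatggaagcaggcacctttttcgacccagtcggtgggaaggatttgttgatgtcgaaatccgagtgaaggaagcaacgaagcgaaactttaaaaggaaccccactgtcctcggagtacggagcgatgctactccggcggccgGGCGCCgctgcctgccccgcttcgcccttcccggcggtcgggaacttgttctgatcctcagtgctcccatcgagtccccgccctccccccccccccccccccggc

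Bmpr1a, which encodes a type I receptor, was represented by a single dim probe set. It measured 3.49, 3.38, 3.35 and 3.52 in vehicle and 3.52, 3.41, 3.34 and 3.46 after GW9662. The groups covered the same range, and the log2 difference was -0.0025 with an interval from -0.15 to 0.15 (limma adjusted p = 0.997). The sign turned under centring on sample medians, renewed quantile normalisation and other alternatives. This signal lay at percentile 9.85 of all genes, and a level of Bmpr1a was not established.

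**Figure D1:**
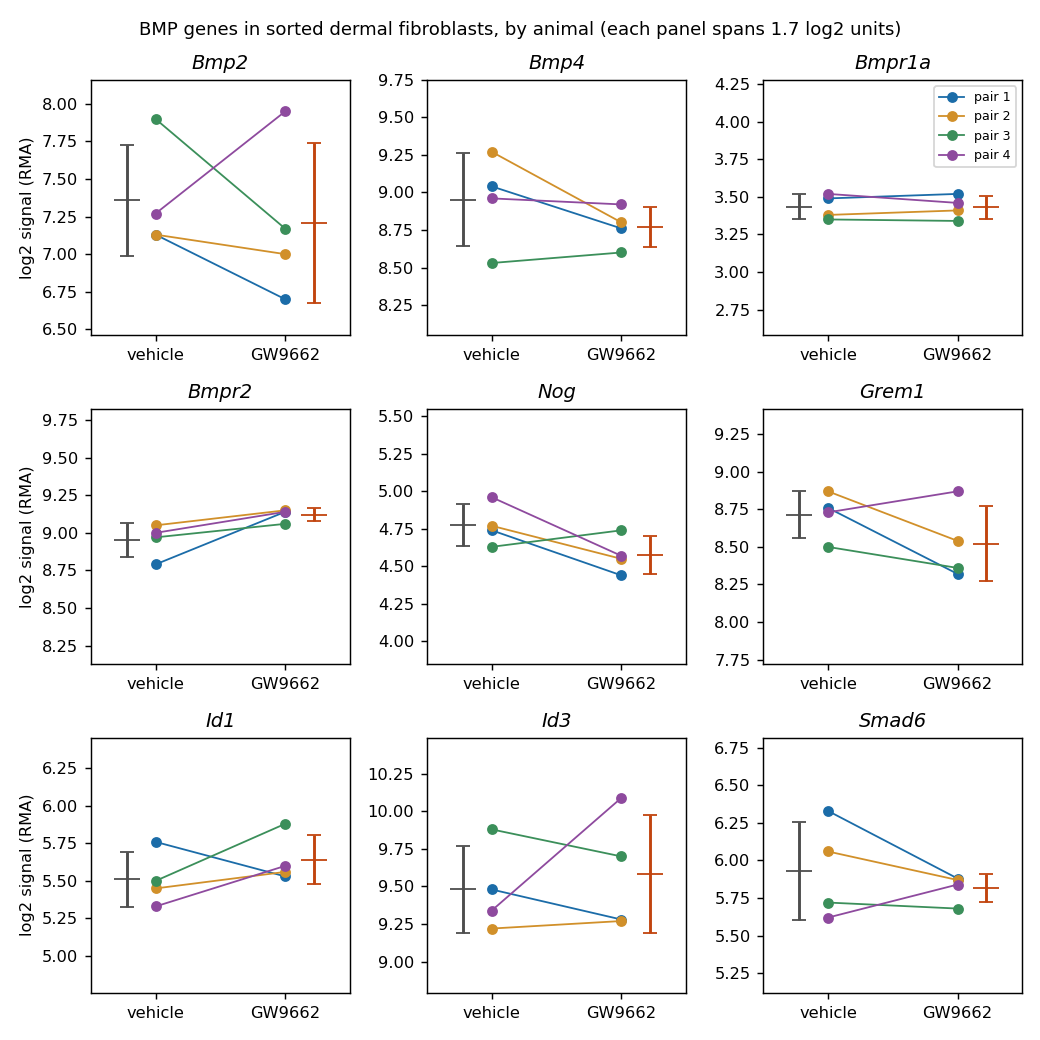
Log2 signal (RMA) of the 9 genes in each animal, with vehicle on the left and GW9662 on the right of each panel, lines joining the animals of a pair, and horizontal marks with bars for the group mean ± SD (n = 4). Bmpr2 shows the 1 separation of groups (8.79 to 9.05 against 9.06 to 9.15), while Bmp2 and Id3 show the widest spread between animals.

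The response genes, which are read as a gauge of BMP signalling, had means on both sides of 0. Id1 encodes an inhibitor of basic helix-loop-helix transcription factors and is a direct SMAD target. It measured 5.76, 5.45, 5.50 and 5.33 in vehicle 1 to 4 and 5.53, 5.56, 5.88 and 5.60 in GW9662 1 to 4. The highest treated animal was GW9662 3 and the highest vehicle animal vehicle 1, and the ranges overlapped. For Id1 the log2 difference was 0.13 with an interval from -0.10 to 0.37 (limma adjusted p = 0.997). It was higher in 3 of 4 pairs and lower by 0.23 in pair 1, and it was 0.05 without GW9662 3, 0.07 without vehicle 4 and 0.22 without vehicle 1.

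Id3, another inhibitor of the same family, measured 9.48, 9.22, 9.88 and 9.34 in vehicle 1 to 4. After GW9662 it measured 9.28, 9.27, 9.70 and 10.09. Animals numbered 3 were high in both groups, and GW9662 4 was the highest of all. Id3 thus had a log2 difference of 0.11 with an interval from -0.32 to 0.53 (limma adjusted p = 0.997), made up of 0.75 in pair 4 and -0.20, 0.05 and -0.18 in pairs 1 to 3. Without pair 4 it was -0.11. Within groups the residual SD of Id3 was 0.343, at percentile 98.0 of all genes. Id genes are also strongly expressed by endothelial cells, which the sort against CD31 was set to remove. The mean of 8 endothelial markers was 4.74, 4.89, 5.16 and 5.14 in vehicle and 4.80, 4.96, 5.04 and 5.06 after GW9662, with single markers between 3.59 (Emcn) and 7.84 (Kdr). Of the 8, 4 had a higher mean after GW9662 and 4 a lower one, with Pecam1 at 0.12 and Tek at -0.38 (limma with the block, unadjusted p = 0.0233, adjusted p = 0.966). The endothelial mean was higher in the animals numbered 3 and 4 of both groups, and its part in the Id3 values was not tested. In sorted bulk samples, fewer cells of a type and less RNA per cell cannot be told apart. The 250 bases before Id3, at chr4:136143572-136143821 on the plus strand of GRCm38.p6 in RefSeq, are shown as those of a SMAD target. They hold neither motif set in capitals, and 2 copies of the shorter SMAD box CAGAC on either strand, left in lower case.
Id3: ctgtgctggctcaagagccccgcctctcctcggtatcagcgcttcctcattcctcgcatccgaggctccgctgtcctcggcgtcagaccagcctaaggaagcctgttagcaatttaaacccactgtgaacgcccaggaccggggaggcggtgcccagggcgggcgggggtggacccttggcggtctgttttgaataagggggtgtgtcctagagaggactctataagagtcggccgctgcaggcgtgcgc

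Smad6, the intracellular inhibitor that SMAD signalling induces as negative feedback, measured 6.33, 6.06, 5.72 and 5.62 in vehicle 1 to 4 and 5.88, 5.87, 5.68 and 5.84 in GW9662 1 to 4. The vehicle animals spread over 0.71 and the treated animals over 0.20, inside the vehicle range. The log2 difference was -0.12 with an interval from -0.43 to 0.20 (limma adjusted p = 0.997). It was -0.45, -0.19 and -0.04 in pairs 1 to 3 and 0.22 in pair 4. Without vehicle 1, the highest of the 8 animals, the value was 0.02. Without vehicle 4, the lowest of the vehicle group, it was -0.22.

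Over the 9 genes, 3 had a higher mean after GW9662 and 6 a lower one, with a median log2 difference of -0.12, beside a median of -0.005 over all genes, of which 51.8% had a lower mean. No gene of the array passed limma's test at an adjusted p under 0.05 (0% of 17097 genes), with or without the replicate block. Of the 9, Bmpr2 (higher) and Nog (lower) reached an unadjusted p under 0.05, against 3.38% of all genes, of which 1.57% were higher and 1.81% lower. With the block only Bmpr2 did, against 4.83% of all genes. Over probe sets, 2 of the 10 reached that level, against 3.55% of the array, and 1 of the 10 had groups apart, against 1.9%. Both were known from earlier results of these data when the genes were chosen. The 95% intervals show what 4 animals a group can resolve, and they reached from 0.15 on either side of 0 in Bmpr1a to a decrease of 0.72 in Bmp2 on the log2 scale.

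**Figure D2:**
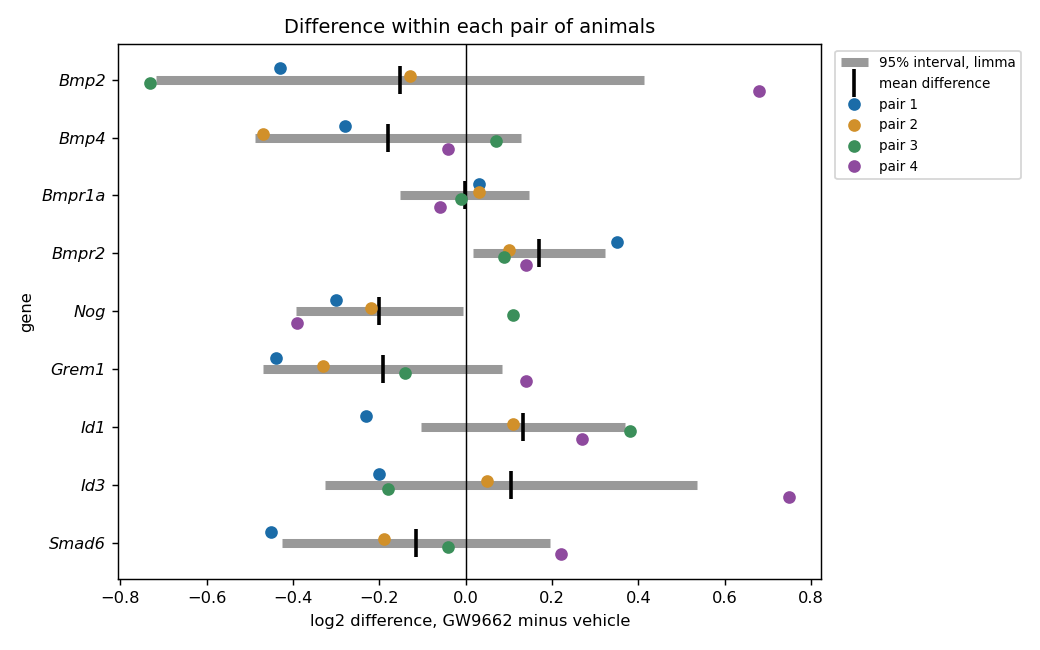
Log2 difference, GW9662 minus vehicle, within each of the 4 pairs of animals (coloured points), with the mean difference (black mark) and limma's 95% interval (grey bar) for each of the 9 genes. Bmp2, Grem1 and Smad6 lie below 0 in pairs 1 to 3 and above 0 in pair 4, where they stand at 0.68, 0.14 and 0.22.

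Pair 4 went against the others in several of these genes. Bmp2, Grem1 and Smad6 were each lower after GW9662 in pairs 1 to 3 and higher in pair 4, a pattern seen in 6.43% of all genes. In all, 5 of the 9 genes, the same 3 with Bmp4 and Nog, were lower in exactly 3 of 4 pairs, as were 24.9% of all genes. With pair 4 left out, the log2 difference was -0.43 for Bmp2, -0.30 for Grem1 and -0.23 for Smad6 (n = 3 per group). These 3 genes were singled out for their direction in pairs 1 to 3, so these values restate that pattern and are given with no test. Without vehicle 4 alone the difference was -0.18 for Bmp2 and -0.19 for Grem1, close to their values over all animals, and without GW9662 4 alone it was -0.40 and -0.31. For Smad6 the reverse held. Its difference was -0.22 without vehicle 4 alone and -0.12 without GW9662 4 alone, the latter close to its value over all animals.

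Of the 36 pairings of the 9 genes over the 8 animals, 2 had an exact permutation p for Pearson's r under 0.05 before adjustment (5.56%, close to the 5% that such a threshold lets through), and 0 passed adjustment. Both are given as descriptions. Bmp2 and Id3 had Pearson's r = 0.868 (exact permutation p = 0.00749, adjusted p = 0.27 over 36 pairings) and Spearman's rho = 0.79 (exact permutation p = 0.0248, adjusted p = 0.446). The value of r rested on vehicle 3 and GW9662 4, the highest animals in both genes, and r was 0.363 without them. With the means of pairs and groups removed it was 0.97, which is an r over only the 4 pair differences. Such an r can be large where the plain r is small, as for Bmpr1a and Grem1 (-0.984 against 0.186). It also rests on pair 4, where both genes were higher after GW9662, by 0.68 and 0.75. Bmp4 and Grem1 had r = 0.803 (exact permutation p = 0.0172, adjusted p = 0.31) and rho = 0.802 (exact permutation p = 0.0222, adjusted p = 0.446). Here r was 0.846 without vehicle 2 and vehicle 3, the animals farthest from the median of Bmp4, and 0.673 with the means of pairs and groups removed. A day of collection holds only 2 animals, so no r within a day could be computed.

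For Id1 and Id3, r was 0.333 (exact permutation p = 0.419, adjusted p = 0.878) and rho was 0.429 (exact permutation p = 0.299, adjusted p = 0.938). Between Bmp2 and Bmp4, r was -0.207 (exact permutation p = 0.621, adjusted p = 0.878) and rho -0.132 (exact permutation p = 0.761, adjusted p = 0.944). Of the 36 pairings, 15 had a positive r and 21 a negative one.

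**Figure D3:**
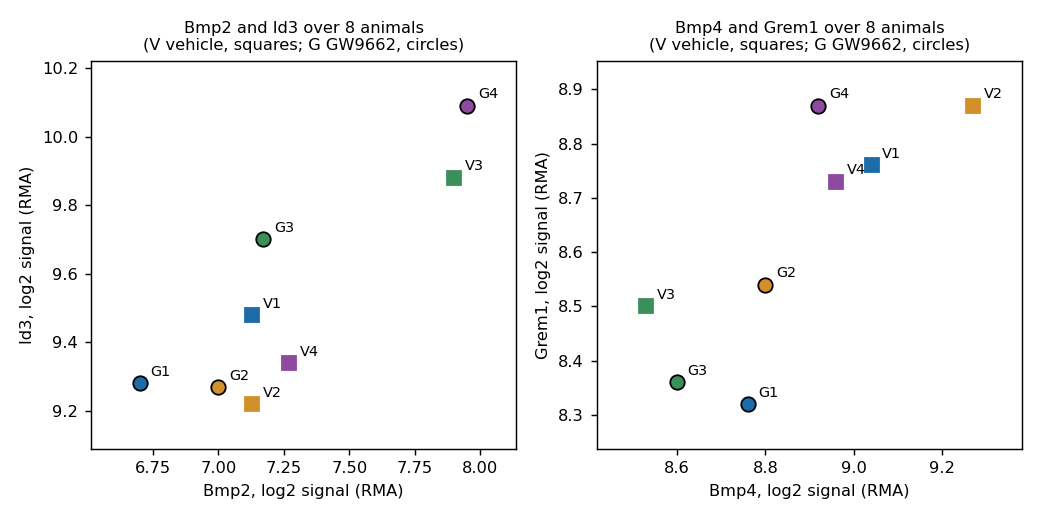
Log2 signal (RMA) of Id3 against Bmp2 and of Grem1 against Bmp4 in the 8 animals, with V for vehicle, G for GW9662 and the pair number. Vehicle 3 and GW9662 4 stand at the upper right for Bmp2 and Id3, and r falls from 0.868 to 0.363 without them, while Bmp4 and Grem1 (r = 0.803) are spread along the range.

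The closest genes were sought among those of the 17097 genes with ordinary symbols, with predicted and clone-named genes left out. There, the values over the 8 animals most like those of Bmp2 were those of Cd24a (r = 0.984), which encodes a marker sorted against and measured 3.41 to 3.69. Next came Birc3 (0.975), an inhibitor of apoptosis. For Id3 the closest genes were Ets2, a transcription factor (0.992), and Atad2b (0.985). Ets2 showed the pattern of Id3 animal by animal, with 9.0 in vehicle 3, 8.80 in GW9662 3 and 9.17 in GW9662 4 and 8.50 to 8.71 in the other 5. For Bmp4 they were Bend5 (0.98) and Orai1, a calcium channel subunit (0.958). For Grem1 they were Irx5, a homeobox factor (0.981), and Nme3 (0.979). Irx5 measured 8.18 and 8.29 in GW9662 1 and GW9662 3 and 9.06 in GW9662 4, the lowest 2 and the highest of its 8 values.

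For Bmpr2 the closest genes were Map3k2, a MAP kinase kinase kinase (0.96), and Dlg1 (0.957), and for Nog Slco1c1 (0.981) and Rgs4 (0.965). Id1 was closest to Gnrhr (0.964) and Rnf146 (0.956), Smad6 to Ccdc115 (0.958) and Recql5 (0.956), and Bmpr1a to Fancg (0.962) and Opn4 (0.946). These are the highest of the many correlations with genes of ordinary symbol, over only 8 animals each, given as descriptions. Some of these genes were dim, among them Gnrhr at 3.06 to 3.41, Rgs4 at 3.51 to 3.77 and Slco1c1 at 3.66 to 4.18. The values used do not show whether such signals were above background.

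The wider pathway was read from a list of 53 further genes, of which 48 were measured. Of these, 25 had a higher mean after GW9662, 21 a lower mean and 2 an equal one, with a median of 0.00375, beside 51.8% of all genes with a lower mean. In limma 0 of the 48 passed adjustment, and 1 had an unadjusted p under 0.05, a share below the 3.38% of all genes that did. It was Hey1, a transcription factor induced by Notch and by BMP signals in some cells, which measured 7.54, 7.38, 7.08 and 6.87 in vehicle 1 to 4 and 7.78, 7.40, 7.59 and 7.55 in GW9662 1 to 4. Only vehicle 1 overlapped with the treated animals, and GW9662 1 was the highest of all 8. The log2 difference of Hey1 was 0.36 ± 0.14 (SE; limma unadjusted p = 0.0263, adjusted p = 0.997, higher in 4 of 4 pairs, in pair 2 by 0.02). Without vehicle 4, GW9662 1 or GW9662 3, 0 genes of the list reached that unadjusted level, and without vehicle 1 there were 2, while 367 to 888 of the 17097 genes did with 1 animal left out. With pair 4 left out 1 of the 48 did, against 5.08% of all genes. This gene was not Hey1, at 0.26 (limma unadjusted p = 0.0893, adjusted p = 0.917), but Msx1, at -0.20 (unadjusted p = 0.0422, adjusted p = 0.917). With pair 4 left out and the block, 4 did, against 5.76% of all genes. Hey1 (limma with the block, unadjusted p = 0.0407) and Msx1 (unadjusted p = 0.029) were among them. In the latter fit 0 of the 48 passed adjustment, as 0.00585% of all genes did.

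Among the other ligands, 6 of 9 were higher and 3 lower. Bmp7, a ligand of epithelia and fat, had a log2 difference of -0.18 from its brightest probe set, and its other probe sets gave -0.14 and 0.08. Bmp6 was at 0.14 and Gdf2, a ligand that acts on endothelium, at -0.10. The secreted antagonists other than Nog and Grem1 had 6 of 11 higher and 5 lower, all within 0.11 of 0. The 3 of smallest p were Bmper at 0.10, Fst, the activin and BMP antagonist follistatin, at -0.11, and Sostdc1 at 0.05. The other probe set of Fst gave 0.05 and that of Sostdc1 -0.07.

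In the group of other receptors and co-receptors, 4 of 10 were higher, 4 lower and 2 equal. The 3 of smallest p were the co-receptors Rgma at -0.11 and Tgfbr3 at -0.11 and the type I receptor Bmpr1b at -0.10 (0.06 by its other probe set). Tgfbr3 was lower in 4 of 4 pairs by its brightest probe set, while its other probe set gave 0.03. Of the intracellular mediators and inhibitors, 6 of 11 were higher and 5 lower. Smad5, 1 of the SMADs that BMP receptors phosphorylate, was at 0.13 and higher in 4 of 4 pairs, by 0.04 to 0.19, and its other probe sets gave 0.10 and 0.02. Smad1 was at 0.15 by its brightest probe set and at -0.15 by the other, so it has no settled direction. Bambi, a decoy receptor, was at -0.13. Of the other target genes, 3 of 7 were higher and 4 lower, with Msx1, a homeobox target of BMP signals, at -0.13 (0.03 by its other probe set) and Dlx5 at -0.07. Each gene named here from the list had a limma adjusted p of 0.997.

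**Figure D4:**
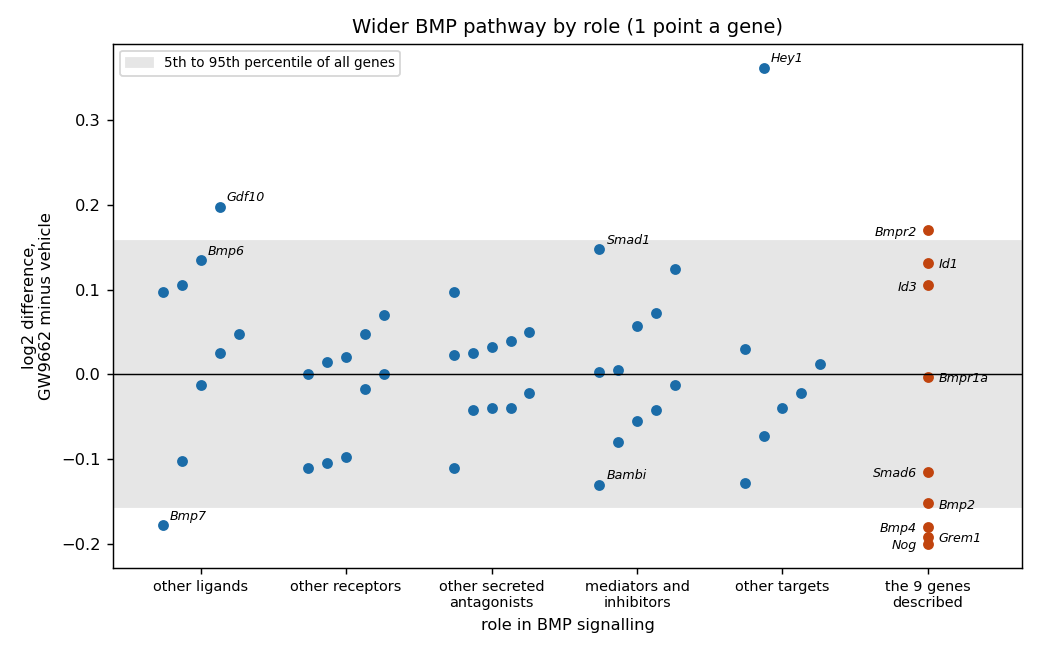
Log2 difference, GW9662 minus vehicle, of 48 further BMP pathway genes by role (blue) and of the 9 genes described (orange), 1 point a gene, with the range from the 5th to the 95th percentile of all genes in grey (-0.16 to 0.16). Hey1 stands highest at 0.36, and Nog, Grem1, Bmp4, Bmpr2, Gdf10 and Bmp7 lie just outside the grey range.

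Promoter windows were found in the RefSeq table for 6 of the 9 genes. For Bmpr1a the window lies within the gene's own span, and for Smad6 its end does, so these are not printed. In the 250 bases before the listed start, GGCGCC (its own reverse complement) occurred in 3 of the 6, Bmpr1a, Bmpr2 and Grem1, and in 9.59% of the 32851 promoter windows of the table. The palindromic SMAD motif GTCTAGAC occurred in 0 of the 6 and in 0.167% of all. CAGAC, searched on both strands, occurred in 2 of the 6, Grem1 and Id3, and in 42.2% of all. CAGAC shares no bases with GGCGCC where both occur in Grem1. The printed sequences held 62.8% to 72% G and C, and base composition was not matched between the 6 and all windows. These are matches of letters and were not tested as binding sites.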

How the data were processed

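Each array was made from the RNA of 5000 sorted cells, after 21 cycles of amplification and biotin labelling of 7.8 µg cDNA, per the labels' protocols. Such amplification can distort the relative signal of genes. The deposited values are log2 signal intensities to 2 decimals for 45141 probe sets. RMA and the package affy are named, with no version, in the submitters' processing notes. Their logarithm base was inferred, since values run from 2.44 to 12.96.

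The platform annotation gave names, with symbols updated through gene identifiers. It named 1 gene for 28898 probe sets and several for 551, which were not used. A further 15692 were unnamed here, so a gene may have further probe sets that were not used. Each of 17097 genes was taken from its brightest probe set (mean of all 8 samples). GW9662 minus vehicle was fitted with limma 3.58.1 in R 4.3.3 (no covariate, two-sided, Benjamini-Hochberg over all genes, threshold 0.05), and likewise over 45037 probe sets without controls. Across genes, deviations from group means of same-numbered animals correlated with r from 0.114 to 0.203. The highest r of a vehicle animal with a treated animal of another number was from 0.0159 to 0.159. For number 2 it was 0.159 beside 0.163 for the same number, and for number 3 it was 0.111 beside 0.114. The numbers were read as pairs on the design's statement on days. The sample titles give no day, so that same-numbered animals shared a day was assumed. The exact permutation tests were two-sided. The named genes were the 9, Pparg, the sort genes and the 2 closest genes of ordinary symbol to each of the 9. They included the 3 of smallest p in each role of the pathway list, with any at an unadjusted p under 0.05 or without overlap. The members and lists were chosen with earlier results of these data known. Alternatives were the block, trend and robust variances, brighter genes, the mean of probe sets, 2 scalings, array weights, all probe sets, each sample left out and pair 4 left out. The fit was tested on simulated data. Precision is limited by the number of arrays.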

Additional observations from a re-analysis of the deposited data

Results flagged for a closer look

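The 32 genes scanned were the 9, the named pathway genes, Pparg and the sort genes. In 3 of their 64 groups of 4 animals, 1 animal lay far from the other 3, where chance flags about 1 group in 20. Bmpr2 measured 9.06 in GW9662 3 against 9.14 to 9.15 in the other treated animals, a gap that is wide only because those 3 agree so closely. Gdf2 measured 6.23 in vehicle 4 against 5.78 to 5.82 in the other vehicle animals. Cd34 measured 10.49 in vehicle 4 against 10.77 to 10.81.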

How the results depend on the processing

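No gene passed adjustment in any alternative but 1, the fit on 3 pairs with pair 4 left out and the replicate block, where 1 gene of the array passed and 0 of the 9 did. The counts of genes at an unadjusted p under 0.05 (578 in the main test) were 825 with the replicate block, 256 among the brighter genes, 868 with pair 4 left out, 985 with pair 4 left out and the block, 1597 over all probe sets, and 367 to 888 with 1 sample left out. In the pathway list the number of genes at that level was 1 in the main test, 0 to 2 with 1 sample left out and 4 with pair 4 left out and the block (5.76% of all genes there), and 13 of its genes were higher among the brighter genes, where fewer were tested. The means of Bmp4, Bmpr2, Nog, Grem1 and Id1 kept their sign in every alternative that held them, and Nog was not among the brighter genes. With 1 sample left out, Bmp2 ranged from -0.401 to 0.0283, with the sign turned without GW9662 1 (0.0158) or vehicle 3, Smad6 from -0.219 to 0.0175, turned without vehicle 1, and Id3 from -0.0633 to 0.238, turned without GW9662 4. Id3 also turned with pair 4 left out (-0.11) and in the latter with the block (-0.11). Bmpr1a turned with renewed quantile normalisation (0.00047), centring (0.0025), array weights (0.00043), pair 4 left out without and with the block (0.0167 in both) and 1 sample left out (-0.0317 to 0.0283). The cause was not tested. Bmpr2 ranged from 0.06 to 0.20 and Nog from -0.26 to -0.14. With 1 sample left out their limma unadjusted p did not stay under 0.05. It rose to 0.0948 for Bmpr2 without vehicle 1 and to 0.126 for Nog without GW9662 1. With the replicate block Nog had an unadjusted p of 0.0591 and no adjusted call changed.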
